A study of Coregonus migratorius and Coregonus peled with 8 samples.

Results

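Repeated warming was compared with unheated rearing in larvae of the peled, Coregonus peled, a coldwater whitefish of the salmon family. The comparison rests on 2 of the 8 libraries of the series. Both hold polyadenylated RNA of whole peled larvae from aquaculture, kept for 1.5 months at 9 to 12 °C, and each is a pool of RNA from 12 to 16 larvae. Chronically warmed larvae were brought to 21 °C for 24 h, 3 times a week, and control larvae were not heated. The other 6 libraries are peled after acute warming (21 °C for 1 h), peled from nature, and the same 4 states of the Baikal omul, Coregonus migratorius. There is 1 library a group, so the difference between the 2 peled libraries has no replicate check. No test was made, and each count describes these 2 pools.

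Fish take the temperature of their water. In fishes in general, a rapid rise in temperature induces heat shock proteins, chaperones that refold damaged proteins, within a short time. Longer or repeated warming is known to alter metabolic enzymes, membrane lipids and muscle proteins as well. Which of the listed genes belong to such groups cannot be read here. The features carry identifiers of the Trinity de novo assembler that the files do not pair with gene names or sequences. In pools of whole larvae, fewer cells of a type and less RNA per cell cannot be told apart.

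The deposited value of a gene is a normalized expression signal whose unit is not named in the sources used here, and the sequencing depth is unknown. Of 2184 listed genes, 1236 reached a value of 10 in the peled chronic library, the peled control or both, and the remaining 948 did not. Each gene's difference is the log2 of (chronic + 1) over (control + 1), a scale on which low values are drawn towards no change. The least variable listed gene spanned 2.25 on the log2 scale over the 8 libraries, and the rule of the list is not stated, so shares of genes refer to this list and not to the transcriptome. The summed value was 104725 in the chronic library, against 80854 in the control. The medians of all listed genes were close, at 8.72 in the chronic library and 9.17 in the control, and 45 genes were listed at 0 in the chronic library, against 49 in the control. Over the 8 libraries the sums ran from 79169 to 228369 and the medians from 8.70 to 10.9.

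After chronic warming 248 of the 1236 genes (20.1%) stood at least 2-fold higher and 202 (16.3%) at least 2-fold lower than in the control, together 450 genes or 36.4%. In the omul pair of the same states 21.6% of 1198 genes were at least 2-fold apart. Most of the peled differences were moderate. The median log2 ratio was 1.44 among the higher genes and -1.39 among the lower ones. At least 4-fold apart were 48 higher and 38 lower genes (6.96% of the 1236), and at least 8-fold apart were 12 higher and 5 lower genes. Only 1 gene, a lower one, differed more than 16-fold. All these folds are of values with 1 added, which limits the fold of genes with a low value in either library. Across all 1236 genes the middle of the distribution lay near 0, with a median log2 ratio of 0.02 and quartiles of -0.68 and 0.81. The median absolute log2 ratio was 0.74 in peled and 0.48 in omul. The balance of higher and lower genes depended on scaling, and also on the pseudocount and the minimum. Of the genes at least 2-fold apart, 61.2% were higher with a pseudocount of 5 and 62.6% with a minimum of 20. With all 8 libraries brought to a common sum, 1343 genes reached the minimum. Of these 150 were higher and 367 lower (29% and 71% of those counted), where the values as deposited gave 55.1% and 44.9%. Over the same 1236 genes the common sum gave 144 higher and 324 lower. That scaling moved the median log2 ratio of all listed genes to -0.27, against 0.03 as deposited.

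**Figure D1:**
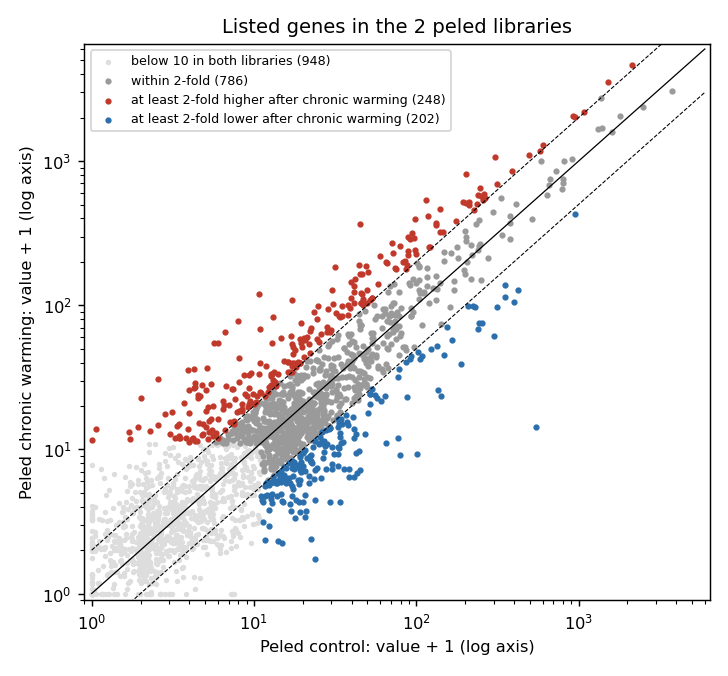
Each point is a listed gene, with its value plus 1 in chronically warmed peled on the vertical log axis and in the peled control on the horizontal log axis. The solid line marks equal values and the dashed lines a 2-fold difference. Of the 248 higher genes 34 lie at 100 or more in the control, and of the 202 lower genes 26. At the top of the range, the 19 genes that reached 1000 in either library include 9 higher genes and 0 lower ones. All 19 reached 1000 in the chronic library and 10 in the control, so this choice favours higher genes.

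Genes near the limits show how fine the division is. The last gene counted as higher had 14.05 in the chronic library and 6.50 in the control (log2 ratio 1.00), and the first one left out had 14.3 and 6.67 (0.99). On the lower side the last gene counted had 12.1 in the chronic library and 25.3 in the control, and the first one left out had 5.65 and 12.3. Among the 948 genes below a value of 10 in both libraries, 119 were at least 2-fold higher and 86 at least 2-fold lower.

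The genes with the largest ratios were mostly of low to moderate level. TRINITY_DN95004_c1_g1 had the highest log2 ratio, 3.71, with 12.9 in chronically warmed peled and 0.058 in the control. It stood at 4.46 after acute warming and was listed at 0 in peled from nature. In omul it was at 15.9 after chronic warming, against 0.59 in the control. It was thus higher after chronic warming in both species, and reached no more than 15.9 in any of the 8 libraries. Its ratio depends strongly on the pseudocount, with 6.36 at a pseudocount of 0.1 and 1.82 at 5. The 20 genes with the highest ratios ran from 10.7 to 364 in the chronic library, with a median of 34.9, and from 0 to 43.99 in the control, with a median of 3.32. The ranking itself favours low control values. In libraries it did not use, their median was 6.97 after acute warming and 66.7 in peled from nature, where all 1236 genes had medians of 19.3 and 7.96.

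The single genes of this top 20 did not share a common profile over the other libraries. The gene at rank 10 stood at 34.4 after chronic warming and 530.2 after acute warming, against 2.94 in the peled control. In omul it stood at 20.8 after chronic and 138 after acute warming, against 3.17 in the control. Its chronic value was thus far below its acute value in both species. The gene at rank 8 showed another order, with 53.4 after chronic and 6.17 after acute warming, against 4.67 in the peled control. The gene at rank 4 had 21.8 after chronic and 1.22 after acute warming, against 1.01 in the peled control, but 46.8 to 294 in the 4 omul libraries. Here the chronic peled value lay above those of the other reared peled libraries and stayed below all omul values.

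Few genes were nearly missing from just 1 library of the pair. Values below 1 in the control and at least 10 in the chronic library were found for 5 genes, whose chronic values lay between 10.7 and 13.4, and 1 of these was listed at 0 in the control. The opposite was found for 1 gene, with 0.74 in the chronic library and 22.7 in the control. This gene was at 16.4 after acute warming and listed at 0 in peled from nature.

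The sum over all listed genes was 23871 greater in the chronic library than in the control. The 19 genes that reached 1000 in either peled library summed to 37334 in the chronic library and 24661 in the control, and their difference was 53.1% of the whole. TRINITY_DN2379_c0_g1 had the largest gain, with 4639 in chronically warmed peled and 2141 in the control, a log2 ratio of 1.12 (0.74 with the libraries brought to a common sum). It was at 1033 after acute warming and 14995 in peled from nature. In omul the same gene had 6175 after chronic warming and 6741 in the control, so that its chronic and control values were close there. Of the 19 genes at 1000 or more, 9 were at least 2-fold higher and 0 lower, and 16 of the 19 had a ratio above 0. Their median log2 ratio was 0.99, against 0.02 for all 1236 genes. With the libraries brought to a common sum the median was 0.62 and 1 of the 19 was at least 2-fold higher. In omul the same 19 genes had a median log2 ratio of -0.06 and ran from -7.39 to 0.68. Counted without a minimum value in omul, 0 of the 19 were at least 2-fold higher there and 3 at least 2-fold lower. TRINITY_DN79_c1_g2 is among these 3, with 0.26 after chronic warming and 8.57 in the control of omul, both below 10. Of the 1198 genes that reached 10 in the omul pair, 10.9% were at least 2-fold higher and 10.7% lower. The 19 genes were picked for a high value in the pair itself. All 19 reached 1000 in the chronic library and 10 of them also in the control. The choice thus favours genes raised in the chronic library, and the counts and median in peled depend on it.

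The 202 lower genes had a median of 7.02 in the chronic library and 22.6 in the control. In the control 26 of them (12.9%) reached 100, close to the 34 of the 248 higher genes (13.7%) and to 10.4% of all 1236. In the chronic library 5 of the lower genes (2.48%) and 83 of the higher genes (33.5%) reached 100, against 13.3% of all 1236. Both libraries entered the ratio that chose the 2 sets, so these shares depend on that choice. TRINITY_DN1009_c1_g2 had the lowest log2 ratio, -5.26, with 13.3 in chronically warmed peled and 545 in the control. It stood at 374 after acute warming and at 0.34 in peled from nature. In omul it was at 10.7 after chronic warming, against 7.31 in the control, so it exceeded 100 in the acute and control libraries of peled alone. TRINITY_DN79_c1_g2 had the largest negative difference in value, with 3047 in the chronic library and 3758 in the control, but this was within 2-fold (log2 ratio -0.30). In omul it stood at 0.26 after chronic warming and 8.57 in the control, although it reached 1770 in omul from nature. The 20 genes with the lowest ratios ran from 0.74 to 22.3 in the chronic library and from 13.03 to 545 in the control. Their median was 4.43 in the chronic library, 21.3 in the acute library, 3.72 in nature and 35.2 in the control.

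The levels of the higher and lower genes in the 6 libraries outside the pair differed from each other. These libraries did not enter the ratio that chose the genes, although every gene of the deposited list varies over the 8 libraries. The 248 higher genes had a median of 48.8 in the chronic library, 25.1 after acute warming, 77.7 in peled from nature and 16.2 in the control. In omul their medians were 44.5 after chronic warming, 36.04 after acute warming, 54.03 in nature and 28.7 in the control. The 202 lower genes had medians of 7.02, 18.4, 5.98 and 22.6 in the chronic, acute, nature and control libraries of peled. In omul their medians were 4.32, 5.67, 12.1 and 7.52 in the same order of states. For comparison, all 1236 genes had medians of 7.96 in peled from nature and 5.87 in the omul control. At 100 or more in peled from nature were 115 of the 248 higher genes (46.4%) and 13 of the 202 lower genes (6.44%), against 16.8% of all 1236.

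**Figure D2:**
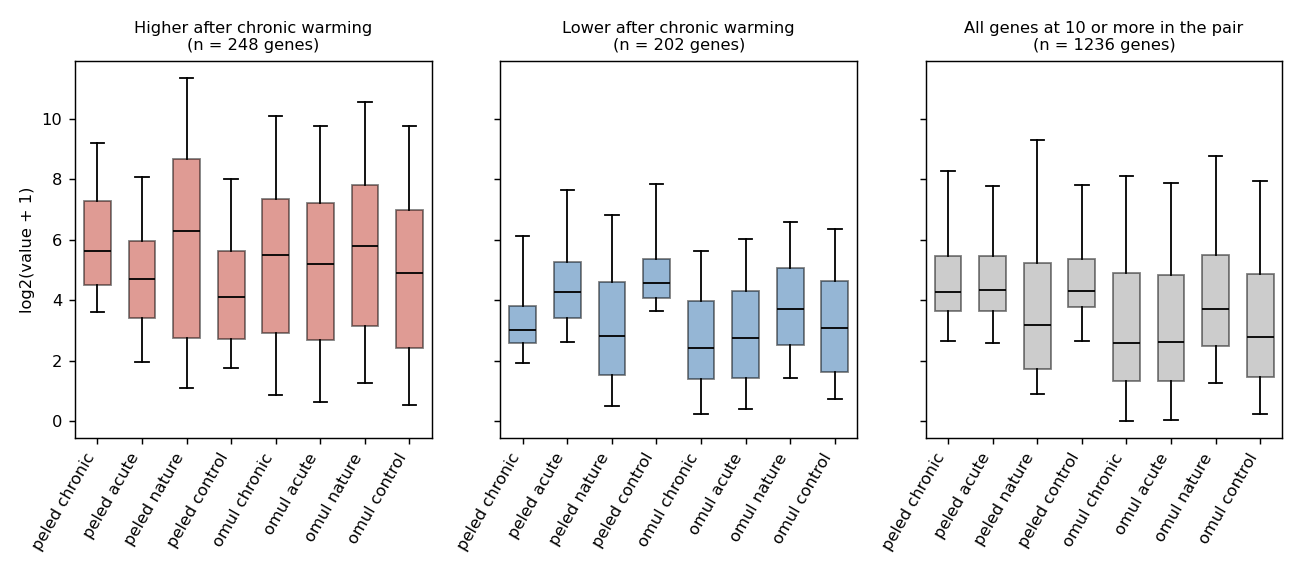
Boxes show the quartiles and median of log2(value + 1) over genes in each of the 8 libraries, and whiskers the 5th to 95th percentile, for the 248 higher genes, the 202 lower genes and all 1236 genes that reached 10 in the pair. The higher genes had a median value of 77.7 in peled from nature, and the lower genes 5.98.

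The same relation was read the other way, by classing the 1236 genes by their level in a library outside the pair. A gene scarce in the control is among the 1236 only if its chronic value reached 10, and the reverse. This entry rule favours genes that lie apart in the pair. Of 228 listed genes at 100 or more in peled from nature, 208 are among the 1236, and of 163 in the omul control, 139. Of the 208 genes at 100 or more in peled from nature, 115 (55.3%) were at least 2-fold higher after chronic warming than in the control and 13 (6.25%) lower, with a median log2 ratio of 1.08. Among the 351 genes at 10 to 100 in nature, 15.4% were higher and 19.7% lower, and among the 600 genes at 1 to 10, 11.2% were higher and 16.2% lower. Below 1 in nature lay 77 genes, of which 15.6% were higher and 29.9% lower. Excess of higher over lower genes was thus seen in the most abundant class, and not in the 3 classes below it. The omul control gave a like picture in its top class, where 73 of 139 genes at 100 or more (52.5%) were higher in chronically warmed peled and 10 (7.19%) lower. With the libraries brought to a common sum, 31 of these 139 (22.3%) were higher and 14 (10.07%) lower. In its class of 10 to 100, 24.7% were higher and 21.1% lower. Level in the acute library of peled divided the genes less. Of 141 genes at 100 or more there, 27% were higher and 17.02% lower, with a median log2 ratio of 0.17.

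Of the genes below 100 after acute warming but at 100 or more in peled from nature, 88 of 150 (58.7%) were at least 2-fold higher after chronic warming than in the control and 7 (4.67%) lower. Their medians were 56.9 in the chronic library, 23.04 in the acute library, 243 in nature and 27.4 in the control. Of the genes at 100 or more after acute warming but below 100 in nature, 11 of 83 (13.3%) were higher and 18 (21.7%) lower. Of the 58 genes at 100 or more in both of these libraries, 27 (46.6%) were higher and 6 (10.3%) lower. Among the 945 genes below 100 in both, 12.9% were higher and 18.1% lower. The entry rule given above holds for these classes too. With the libraries brought to a common sum, the 208 genes abundant in nature had a median log2 ratio of 0.71, and 62 of them were at least 2-fold higher. The 1028 genes below 100 in nature had a median of -0.49. As deposited the 2 medians were 1.08 and -0.13. Because 1 is added to each value, scaling does not shift the log2 ratios of low and abundant genes alike. Under the common sum the ratio of TRINITY_DN95004_c1_g1 rose, while that of TRINITY_DN2379_c0_g1 fell. The common sum lowered both class medians and changed the counts past 2-fold. The 2 medians stayed apart, with that of the class abundant in nature the higher. Summed value also differed between the 2 libraries, as given above, and its part in these counts beyond the scaling was not tested.

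**Figure D3:**
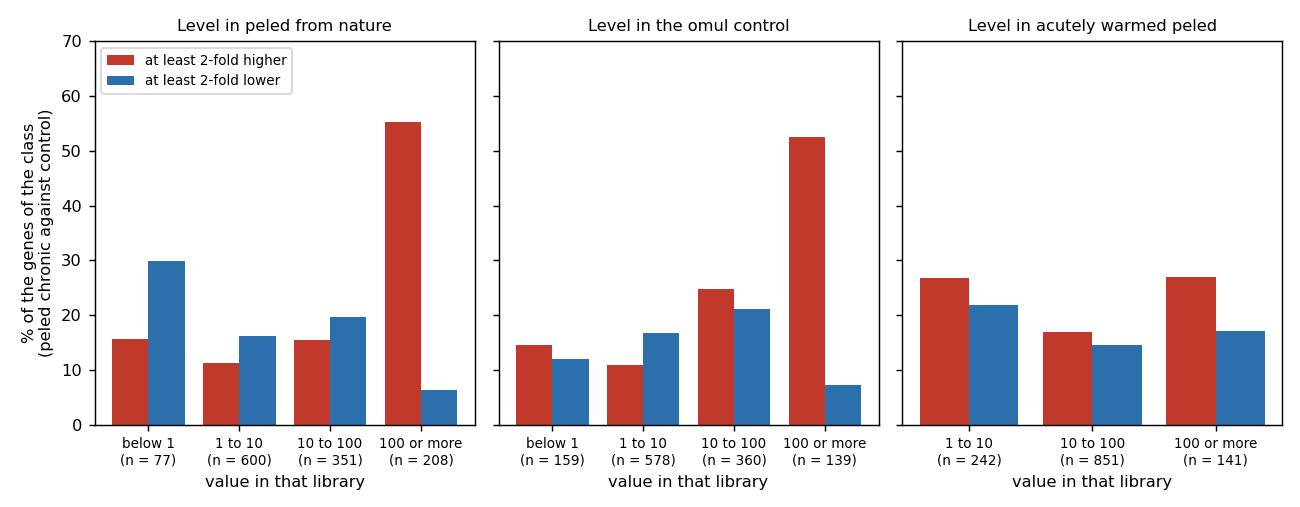
Bars give the percentage of genes at least 2-fold higher or at least 2-fold lower in chronically warmed peled than in the peled control, for classes of value in peled from nature, in the omul control and in acutely warmed peled. The class below 1 of the acute library held 2 genes and is not drawn. In the class of 100 or more, 55.3% of genes by nature level and 52.5% by omul control level were higher.

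Genes that were abundant in reared omul and nearly missing from the peled control mostly stayed low. There were 14 listed genes at 100 or more in all 3 aquaculture libraries of omul and below 5 in the peled control. Their median was 2.21 in chronically warmed peled, with a range of 0.22 to 21.8, against a median of 1.76 and a range of 0.29 to 3.53 in the control. The control range is fixed by the choice. Of the 14, 2 reached 10 in the chronic library and 2 in the acute library, where the median was 1.78 and the highest value 21.05. In peled from nature all 14 lay above 10, with a median of 188. Of all 2184 listed genes, 1028 reached 10 in the chronic library, 1076 in the acute library and 1100 in peled from nature.

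The omul pair, which shares no library with the peled pair, was then read for the same genes by the size of their peled ratio. The 48 genes at least 4-fold higher in chronically warmed peled had a median log2 ratio of 0.79 in omul, and 40 of them (83.3%) were above 0. The 200 genes 2 to 4-fold higher in peled had an omul median of 0.24, with 70.5% above 0. For the 786 genes within 2-fold in peled the omul median was -0.07, with 43.3% above 0. The 164 genes 2 to 4-fold lower in peled had an omul median of -0.58, with 20.7% above 0, and the 38 at least 4-fold lower had -0.47, with 21.1% above 0. Divided further, the 36 genes 4 to 8-fold higher had an omul median of 0.79 and the 12 at least 8-fold higher 0.75. The 33 genes 4 to 8-fold lower had -0.64. The omul median thus had the sign of the peled difference in each of these classes. The exception was the remaining class of the lower side. Its 5 genes, at least 8-fold lower in peled, had an omul median of 0.36, at median values of 2.71 after chronic warming and 0.83 in the control of omul, where little could be read. Other classes were low in omul too. Their median values in the same order were 3.89 and 9.62 for genes 4 to 8-fold lower and 4.52 and 7.77 for those 2 to 4-fold lower. For genes within 2-fold they were 3.39 and 3.79. The omul ratios of these classes are thus uncertain as well.

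Counts past 2-fold in omul can be given for genes that also reached 10 in an omul library of the pair. In omul itself 10.9% of 1198 genes were at least 2-fold higher after chronic warming and 10.7% lower. Of the 48 genes at least 4-fold higher in peled, 35 reached this level, and 15 of these (42.9%) were at least 2-fold higher in omul and 0 lower. Of the 200 genes 2 to 4-fold higher in peled, 145 reached it, and 16 (11.03%) were higher in omul and 3 (2.07%) lower. The share among these moderate genes was near that of all omul genes. Of the 38 genes at least 4-fold lower in peled, 17 reached the level, and 9 (52.9%) were lower in omul and 0 higher. Of the 164 genes 2 to 4-fold lower, 72 reached it, and 22 (30.6%) were lower in omul and 2 (2.78%) higher. A gene can reach the level because it is raised in one of the omul libraries, and the counts take in 89 of the 202 lower genes of peled, leaving out those scarce in omul.

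**Figure D4:**
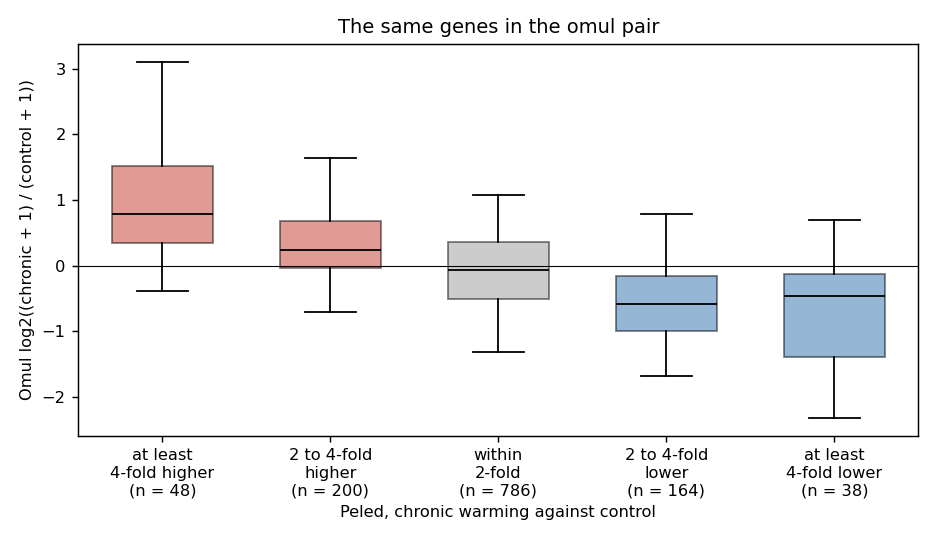
Boxes give quartiles and median, and whiskers the 5th to 95th percentile over genes, of the omul log2 ratio of chronic warming over control, for genes grouped by their difference in peled. The omul medians were 0.79, 0.24, -0.07, -0.58 and -0.47 from the class at least 4-fold higher to the class at least 4-fold lower.

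Genes of the same assembly component, which the assembler keeps together for shared sequence, mostly lay on the same side. The 1236 genes came from 1181 components, and 52 components held 2 or more of them, 107 genes in all. In 34 of the 52 all genes were above the control after chronic warming, in 13 all were below it, and in 5 they lay on both sides. Of all 1236 genes, 633 were above the control and 603 below it, with 20.1% at least 2-fold higher and 16.3% lower. All genes were at least 2-fold higher in 16 components and at least 2-fold lower in 5, and 0 components had genes 2-fold apart in opposite directions. The median spread of log2 ratios within a component was 0.47. In the component with the largest spread, 2.67, a gene had 538 in the chronic library and 114 in the control, and its partner 11.5 and 15.9. Reads can be divided between such related sequences, so single values within a component are uncertain. Components bore little on the totals, since the 248 higher genes came from 232 components and the 202 lower genes from 197.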

How the data were processed

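Per the labels' protocols, RNA was extracted from single whole larvae, combined into a pool per group and sequenced on an Illumina NovaSeq instrument. The deposited values are a normalized expression signal per assembled gene, not whole and never negative. Their scaling, the quantifier and the rule of the gene list were not given in the sources used here. In the submitters' processing notes Trimmomatic 0.36 and edgeR 4.0.3 are listed without saying what each was used for.

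Groups follow the sample titles, with 1 library a group. Ratios used a pseudocount of 1. Genes reaching 10 in either library of a pair were counted when 2-fold apart, with no test (Python 3.11.15, pandas 2.3.3, matplotlib 3.10.9). The counting was tested on simulated data. Members and rules were chosen with earlier results of these data known, and the classes by level, the genes high in omul and the class at 1000 or more after the values had been seen. In each direction 2 identifiers are given, the gene with the largest ratio not listed at 0 in the pair and the gene with the largest difference in value. Other single genes, given by rank or component, were chosen after their values were seen. Alternatives were the pseudocount, the minimum value, scaling to a common median or sum, and sums over assembly components. Depth is unknown, so no counting interval is given.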

Additional observations from a re-analysis of the deposited data

Results flagged for a closer look

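Between the chronic and control libraries, 5 of the 550 genes that reached a value of 10 in both pairs differed at least 2-fold in opposite directions in the 2 species. At least 2-fold higher in both species were 31 of the 550, and 31 were lower in both. In peled 180 of the 550 were at least 2-fold higher and 89 lower. In omul 10.55% of the 550 were at least 2-fold higher and 10.18% lower. Higher in peled and lower in omul were 3 genes. The first had 578 in chronically warmed peled and 240 in the peled control, and 0.91 and 10.2 in chronically warmed and control omul. Its omul values are low, and it reached 10 in that pair only just, through the control. The second had 15.3 and 5.01 in the peled pair and 11.4 and 26.9 in the omul pair, and the third 10.99 and 4.97 in the peled pair and 8.11 and 18.6 in the omul pair. Both reached 10 in the peled pair through the chronic library alone, and the third reached 10 in the omul pair through the control alone. In peled the third lay at the 2-fold limit, with a log2 ratio of 1.007. Lower in peled and higher in omul were 2 genes. One had 8.77 in chronically warmed peled and 19.3 in the control, against 134 and 29.3 in chronically warmed and control omul. It reached 10 in the peled pair through the control alone. The other had 13.97 and 33.7 in the peled pair, and 235 and 81.9 in the omul pair. The genes were chosen after their values were seen, and the difference between the species was not tested, with 1 library a group.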

How the results depend on the processing

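The number of genes at least 2-fold apart in peled stayed within 1.5 times of 450 under all 8 alternatives. It ran from 305 of 729 genes with a minimum of 20 to 655 of 2184 with no minimum, so it follows the number of genes counted over. As a share these were 41.8% and 30%, against 36.4% of 1236 genes. The lowest share was 26.5%, with a pseudocount of 5. Scaling to a common sum gave 150 higher and 367 lower genes of 1343 at the minimum, where the values as deposited gave 248 and 202 of 1236. A pseudocount of 5 gave 200 higher and 127 lower genes of 1236, and a minimum of 20 gave 191 higher and 114 lower of 729. Scaling to a common median gave 276 higher and 182 lower genes of 1255. The medians in omul of both sets moved by more than 0.1 on the log2 scale under 1 alternative each, that of the higher genes to 0.53 under the common sum (0.32 as deposited) and that of the lower genes to -0.36 with a pseudocount of 5 (-0.57 at 1). In checks added after the data had been seen, the common sum gave 62 higher genes (115 as deposited) among those at 100 or more in peled from nature, 31 (73) among those at 100 or more in the omul control, and 1 (9) among those at 1000 or more in the pair. Of the 4 identified genes, TRINITY_DN2379_c0_g1 alone crossed the 2-fold limit, with a log2 ratio of 0.74 under the common sum (1.12 as deposited). The signs of the 4 ratios are no check on the pseudocount, which cannot change a sign. Scaling did not shift the 4 ratios alike. The common sum raised that of TRINITY_DN95004_c1_g1 and lowered the others, and the common median raised all 4. No sign changed under either scaling, and nothing is concluded from that. No paired analysis was possible because each group has 1 library, which also leaves no replicate to omit. Depth is unknown, so which differences between low values exceed counting error cannot be read.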
